A study of Mus musculus with 2 samples.

Results

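The haemostasis genes described here are 8 genes of blood clotting and platelet control, Vwf, F8, Thbd, Procr, Tfpi, Plat, Tbxa2r and Entpd1, taken by symbol from the 54838 genes counted in both libraries, and all 8 were found. They were followed across the vessel types of the mouse adrenal gland, with the question of where Vwf was counted against Thbd and Procr, and then compared between libraries within each vessel type. The study sorted live CD31+ CD45- endothelial cells, the cells that line vessels, from adrenal glands and sequenced them singly by droplet RNA-seq. One library came from wild type (WT) female mice of 12 weeks. The other came from VEGF/LysM female mice of 12 weeks, in a study that the submitters describe as being about VEGF-A from macrophages. The labels name this genotype VEGF/LysM and give no further allele, and LysM is the name of a myeloid gene whose promoter is widely used to drive Cre recombinase in macrophages and granulocytes. How many mice were pooled for a library is not stated in the labels. Each genotype has 1 library, so genotype, mouse and library cannot be told apart and no test between them is possible.

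Endothelial cells keep blood fluid on an intact vessel wall and carry the factors that start and stop clotting. Von Willebrand factor (Vwf) tethers platelets and carries coagulation factor VIII (F8), the cofactor of factor IX; thrombomodulin (Thbd) and the endothelial protein C receptor (Procr) act together to turn thrombin towards activation of the anticoagulant protein C, and tissue factor pathway inhibitor (Tfpi) blocks the start of the cascade. Tissue plasminogen activator (Plat) dissolves fibrin, Tbxa2r is the receptor for thromboxane, which activates platelets and constricts vessels, and Entpd1 (CD39) removes the extracellular ATP and ADP that activate platelets. In many organs Vwf is known as a gene of veins and larger vessels and thrombomodulin as one of capillaries.

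On the mm10 (GRCm38) build with GENCODE M21 annotation, all 8 are protein-coding genes. Vwf lies on chromosome 6 at 125546774 to 125686679 on the plus strand, with up to 52 exons in a transcript. F8 lies on chromosome X at 75172715 to 75382615 on the minus strand. Thbd is a gene of 1 exon on chromosome 2 at 148404466 to 148408188, and Procr lies on the same chromosome at 155751117 to 155755471. Annotated genes overlap F8 (the pseudogene Gm8522 on the same strand, Gm6039 and Fundc2 on the other) and Entpd1 (Gm16027, Gm8783 and AC166063.1 on the same strand), and the labels do not say how reads shared between such genes were assigned. RefSeq start-site sequences of build GRCm38.p6 matched 5 of the 8 members, with 8 start sites between them. Procr and Tbxa2r are shown because their levels went opposite ways in arterial-like cells, as described later. Each line gives bases before the RefSeq start site that no GENCODE M21 exon covers, on the plus strand, which is the strand of both genes: Procr at chr2:155750967-155751116, and Tbxa2r at chr10:81328018-81328267 and chr10:81328453-81328702. Capitals mark matches on either strand to the core letters AGGAAG (ETS factors), CCACCC (KLF factors), AGGTCA (nuclear receptors) and ACAATG (SOX factors).
Procr: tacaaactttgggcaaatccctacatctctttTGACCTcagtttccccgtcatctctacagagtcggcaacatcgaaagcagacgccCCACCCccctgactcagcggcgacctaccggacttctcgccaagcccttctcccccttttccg
Tbxa2r, first start site: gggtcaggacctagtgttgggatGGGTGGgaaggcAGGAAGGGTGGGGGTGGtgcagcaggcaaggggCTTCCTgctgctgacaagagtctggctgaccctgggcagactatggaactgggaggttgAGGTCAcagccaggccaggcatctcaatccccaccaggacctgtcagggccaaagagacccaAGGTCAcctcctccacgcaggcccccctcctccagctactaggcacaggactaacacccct
Tbxa2r, second start site: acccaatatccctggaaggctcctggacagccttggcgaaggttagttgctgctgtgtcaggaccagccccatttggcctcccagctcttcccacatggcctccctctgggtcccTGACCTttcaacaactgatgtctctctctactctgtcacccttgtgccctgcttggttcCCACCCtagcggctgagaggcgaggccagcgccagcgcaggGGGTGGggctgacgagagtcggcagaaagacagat
Of the 250 bases before the Procr start only 150 are shown, since 100 were left out as exonic. In the part shown a KLF match began at base -163 and a nuclear receptor match at base -218, counted from the start site. The 2 windows of Tbxa2r held 3 and 2 KLF matches and 2 and 1 nuclear receptor matches, and the window further upstream also held 2 ETS matches, at bases -215 and -182. Such matches are common: among 32851 windows of the same length, 29.5% held the ETS letters, 28.1% the KLF letters, 14.0% the nuclear receptor letters and 10.7% the SOX letters. A match describes the letters of the window and was not tested as a binding site.

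The WT library held 6276 cell barcodes and 8606348 UMIs (unique molecular identifiers, each standing for 1 counted transcript), and the VEGF/LysM library 3807 barcodes and 10323972 UMIs. Median depth was 1174.5 UMIs per barcode in WT and 2336 in VEGF/LysM, so shares of cells with a UMI are also given after thinning each cell to 1000 UMIs. After filtering and removal of possible doublets 5819 and 3677 cells were kept, with 8 cell barcodes common to both libraries, and 5680 and 3521 of the kept cells fell into endothelial clusters. Levels are given as CPM, the gene's UMIs scaled to a sum of 1e6 over the UMIs of the cells, with 95% Poisson intervals that cover counting error only and not variation between mice. UMI counts are not corrected for transcript length, so levels are compared between cell groups within a gene and not between genes. The endothelial markers Cdh5 (1441 CPM in WT, 1353 in VEGF/LysM) and Pecam1 (1308 and 1249), which encodes CD31, were high, and the leukocyte gene Ptprc, which encodes CD45, had 2 UMIs in WT and 0 in VEGF/LysM.

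Cells were clustered without any of the 65 genes of a haemostasis list that holds all 8 members, and the clusters were named from marker genes that hold none of the list. This gave 9 vessel types of at least 100 cells in each library, of which the arterial-like (245 WT and 249 VEGF/LysM cells), continuous capillary-like (869 and 790) and tip-like cells (446 and 344) were named from their markers. Sox17, an arterial transcription factor, was at 1165 CPM in WT and 1299 in VEGF/LysM arterial-like cells. Cd36, a fatty acid transporter of continuous capillaries, was at 7446 and 9393 CPM in the capillary-like cells and at 72.6 and 53.1 CPM in cells with high Plvap. Plvap, which forms the diaphragms of fenestrated endothelium, was at 1239 and 1436 CPM in 6 clusters of 3973 WT and 2001 VEGF/LysM cells that are called by their leading genes: Bgn and Sema3d, Ccl2 and Sele, Ifit1 and Ifit3, Igfbp5 and Adamtsl2, Npr3 and Esm1, and Sdk1 and Chrm3. A cluster of 37 WT and 35 VEGF/LysM cells carried lymphatic and venous markers, and a second clustering of these cells set apart 4 WT and 8 VEGF/LysM cells that scored higher for vein markers than for lymphatic ones. These 12 venous-marker cells had 15 UMIs of Cpe, 9 of Bmp4 and 4 of Ackr1 from the vein list. They also had 8 of Selp (P-selectin), which is on the haemostasis list and not the vein list. Cpe is also a leading gene of the adrenocortical-like cells, a cluster outside the endothelium. Of the lymphatic genes, Lyve1 and Mmrn1 had none in the 12 cells and Prox1 had 2 UMIs, in 2 cells. The other genes of both marker lists are not reported here. The 10 leading genes of the 12 cells nevertheless held Cytl1 and Mgp from the arterial marker list and none from the vein list, so they are called venous-marker cells and not veins.

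Few endothelial cells had a Vwf UMI. All endothelial cells together held 56 Vwf UMIs in WT (7.56 CPM) and 108 in VEGF/LysM (12.2 CPM), and Vwf was found in 36 of 5680 cells (0.634%) and 60 of 3521 (1.70%), or in 0.420% and 0.678% after thinning to equal depth. The cluster with lymphatic and venous markers, 0.651% of endothelial cells in WT and 0.994% in VEGF/LysM, accounted for 41.1% of Vwf UMIs in WT (95% Clopper-Pearson interval 28.1 to 55.0) and 38.0% in VEGF/LysM (28.8 to 47.8). Within it the 12 venous-marker cells had 13 Vwf UMIs in WT and 32 in VEGF/LysM, or 2219 and 1397 CPM. Against the remaining endothelial cells of each library, Vwf in these cells was higher by 8.58 on the log2 scale in WT (95% interval 7.56 to 9.50, exact conditional binomial) and by 7.35 (6.70 to 7.96) in VEGF/LysM. Over the whole cluster of lymphatic and venous markers the difference was 6.85 and 5.76.

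Thbd showed no such concentration. The venous-marker cells had 1 Thbd UMI in WT and 0 in VEGF/LysM. In VEGF/LysM a count of 0 among 22901 UMIs allows up to 131 CPM by a limit of 3 counts. That limit is 2.19-fold below the 287 CPM of the other endothelial cells. The exact conditional binomial interval of the log2 difference allows less, with an upper end of -0.83, so Thbd was lower there beyond counting error. The single WT count leaves the log2 difference of -0.68 with an interval from -5.98 to 1.80. Procr had 2 UMIs in WT (341 CPM) and 4 in VEGF/LysM (175 CPM), which was higher than in other endothelial cells by 3.14 (0.09 to 5.00) and 2.27 (0.39 to 3.65) on the log2 scale. Both WT Procr UMIs were in the 1 cell without Vwf, so the WT value of Procr comes from that cell alone. Tbxa2r had 0 UMIs in all 12 cells and Entpd1 had 18, in 8 cells.

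Cell by cell, the 4 WT venous-marker cells had 6, 5, 2 and 0 Vwf UMIs, and the 8 VEGF/LysM cells had 10, 5, 5, 4, 2, 2, 2 and 2. The only Thbd UMI was in the WT cell without Vwf, which also had both WT Procr UMIs, while the 4 VEGF/LysM Procr UMIs were in 3 cells with Vwf. Vwf was thus counted in 11 of the 12 cells and Thbd in 1. The platelet gene Pf4 had 0 UMIs in all 12, and of the 10 markers of platelets and megakaryocytes only Itgb3 had a UMI in them. Erythroid markers had 0 UMIs in the 4 WT cells but 35 in the 8 VEGF/LysM cells (1528 CPM, against 726 over all endothelial cells of that library), and adrenocortical markers had 0 and 9 UMIs (393 CPM in VEGF/LysM, against 359 over all). The part of such RNA in these values was not tested. Vwf was left out of the clustering but the number of cells is small, and this group was not found when every deposited barcode was kept or when possible doublets stayed in.

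**Figure D1:**
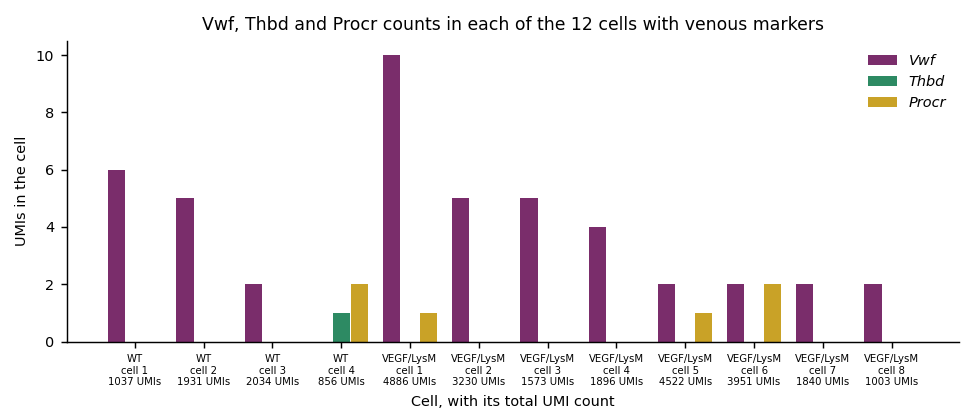
UMIs of Vwf, Thbd and Procr in each of the 12 venous-marker cells (bars), with the library and total UMIs of each cell on the x axis. Vwf was counted in 11 cells, with 2 to 10 UMIs in each, and Thbd in 1.

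Outside that cluster Vwf stayed near the limit of detection. Among the 9 vessel types arterial-like cells had the highest level in both libraries, 13.5 CPM (4 UMIs) in WT and 25.7 CPM (16 UMIs) in VEGF/LysM, followed by continuous capillary-like cells with 12.0 CPM (13 UMIs) and 17.8 CPM (32 UMIs). The 6 clusters of high Plvap had 15 Vwf UMIs in each library, 2.90 and 2.94 CPM. Every neighbour in the order of the 9 types overlapped the next in its interval, and against the pooled Plvap-high cells the capillary-like interval stood clear in both libraries (6.38 to 20.5 against 1.62 to 4.78 CPM in WT) but the arterial-like one only in VEGF/LysM. Against all other endothelial cells the WT capillary-like difference was 0.82 on the log2 scale with an interval from -0.20 to 1.74, and it was -0.78 when possible doublets stayed in. Adrenocortical-like cells, which should lack Vwf, had 0 UMIs in both libraries, which allows up to 33.9 CPM in WT and 10.9 in VEGF/LysM, so in WT no vessel type can be told from that background. The 28 continuous capillary-like cells with a Vwf UMI held all 8 UMIs of the venous gene Ackr1 found in that type and 9 of its 12 Selp UMIs, but also 8 of its 19 UMIs of the arterial gene Gja5, and these genes were looked at after the values were seen. The lymphatic-marker cells of the mixed cluster had 10 Vwf UMIs in WT (259 CPM) and 9 in VEGF/LysM (118 CPM).

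**Figure D2:**
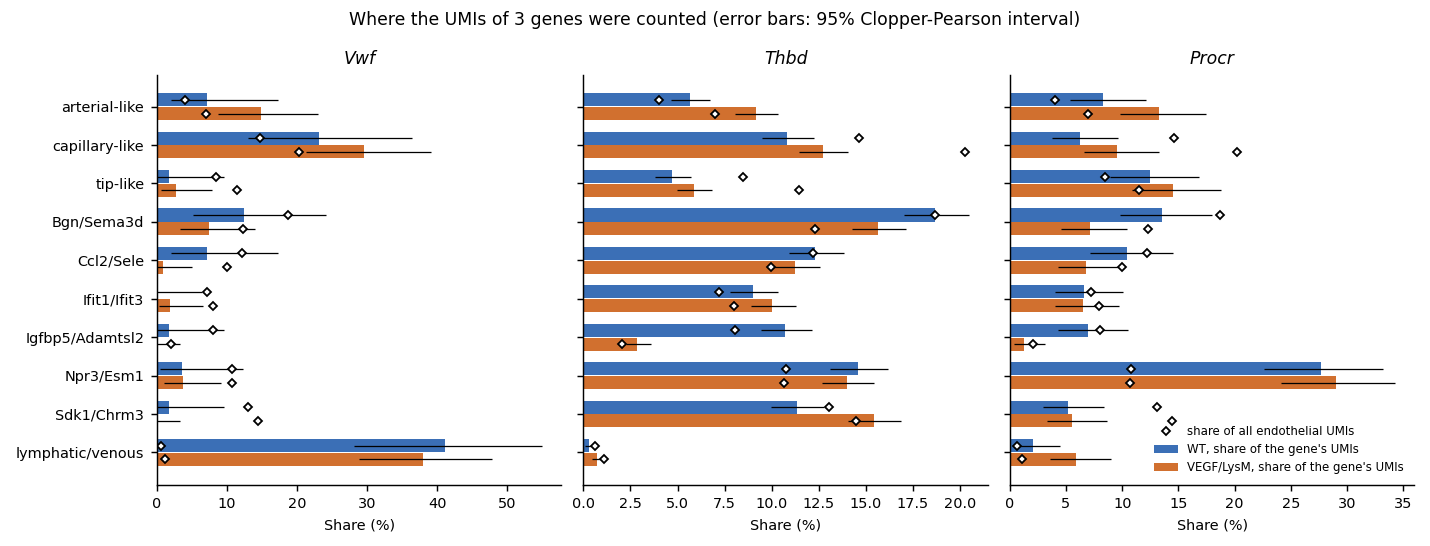
Share of the UMIs of Vwf, Thbd and Procr in endothelial cells that fell in each cell group (bars, with 95% Clopper-Pearson intervals), beside the group's share of all endothelial UMIs (diamonds). The lymphatic and venous marker cluster holds 41.1% of WT and 38.0% of VEGF/LysM Vwf UMIs but under 1% of the Thbd UMIs, and the Npr3 and Esm1 cluster holds 27.7% and 29.0% of the Procr UMIs.

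F8 was higher in the pooled Plvap-high cells than in other endothelial cells, above all in those with Bgn and Sema3d. There it was at 644 CPM in WT (interval 602 to 687), and 648 CPM in VEGF/LysM (601 to 698), followed by the Sdk1 and Chrm3 cluster with 357 and 311 CPM. The other Plvap-high clusters were lower, between 147 and 272 CPM in WT and between 159 and 228 CPM in VEGF/LysM. The lowest of them in each library overlapped tip-like cells (115 and 91.3 CPM) in its interval. The Bgn and Sema3d cluster alone accounted for 44.5% of F8 UMIs in WT and 37.8% in VEGF/LysM. It was not found as a cluster when possible doublets stayed in. Continuous capillary-like cells had the lowest level, 31.3 CPM in WT and 18.9 in VEGF/LysM, which is 20.5-fold and 34.3-fold below the Bgn and Sema3d cluster. Arterial-like cells were also low, with 64.2 and 80.5 CPM. Adrenocortical-like cells had 0 F8 UMIs in WT and 20 (73.0 CPM) in VEGF/LysM. F8 in the VEGF/LysM capillary-like cells was below that level, and the 80.5 CPM of arterial-like and 91.3 CPM of tip-like cells stood just above it. Whether the counts in adrenocortical-like cells are background RNA was not tested, for F8 or for the other members. A small cluster led by Stab2 and Clec4g, genes of liver-type sinusoidal endothelium, had 40 F8 UMIs in 13 WT cells (1350 CPM) and held only 1 VEGF/LysM cell. F8 and Vwf, whose proteins circulate as a complex, thus had their highest levels among large groups in different cells, though Vwf had few UMIs there. In the small cluster of lymphatic and venous markers F8 was at 247 CPM (11 UMIs) in WT and 422 CPM (42 UMIs) in VEGF/LysM. Against the other endothelial cells this was -0.13 (-1.13 to 0.71) and 1.02 (0.54 to 1.46) on the log2 scale.

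Thbd had the smallest range between types of the 7 members that were counted in every type. It was at 385 CPM in WT arterial-like cells (interval 318 to 463), at 375 CPM in VEGF/LysM ones (328 to 426), at 370.5 and 375 CPM in the Npr3 and Esm1 cluster, and at 364 and 400.0 CPM in the Igfbp5 and Adamtsl2 cluster. Its lowest levels were in tip-like cells, 151 and 146 CPM, and in continuous capillary-like cells, 202 and 179.5 CPM. The highest type was 2.55-fold above the lowest in WT and 2.73-fold in VEGF/LysM. In arterial-like cells the neighbouring values overlapped those of the Npr3 and Esm1 cluster, so the 2 cannot be ordered. Adrenocortical-like cells had 45.2 and 51.1 CPM, below every vessel type.

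Procr was less widespread. The Npr3 and Esm1 cluster had 100.5 CPM in WT (interval 79.7 to 125), 99.1 CPM in VEGF/LysM (80.1 to 121), and arterial-like cells had 81.1 and 69.2 CPM, with intervals that overlapped. Tip-like cells came next with 57.3 and 46.1 CPM. The Sdk1 and Chrm3 cluster was lowest, with 15.5 and 14.0 CPM, and continuous capillary-like cells had 16.6 and 17.2 CPM. Adrenocortical-like cells had 11.3 CPM (1 UMI) in WT and 36.5 CPM (10 UMIs) in VEGF/LysM, so the lowest vessel types lay within that background. Across all endothelial cells Procr was found, after thinning, in 3.61% of cells in WT and 3.73% in VEGF/LysM, beside 21.3% and 23.6% for Thbd.

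Tfpi varied little among the Plvap-high and tip-like cells. It was highest in the Sdk1 and Chrm3 cluster, 82.7 CPM in WT and 81.6 in VEGF/LysM, with 75.2 and 72.3 CPM in the Bgn and Sema3d cluster, and neighbouring types overlapped in both libraries. Continuous capillary-like cells were lowest, with 20.3 and 23.3 CPM. Adrenocortical-like cells had 67.9 CPM (6 UMIs) and 14.6 CPM (4 UMIs), and in WT the interval of every type overlapped that of this background (24.9 to 148 CPM). In VEGF/LysM the background interval (3.98 to 37.4 CPM) overlapped those of capillary-like and arterial-like cells and of the Igfbp5 and Adamtsl2 cluster. In the 13 WT cells led by Stab2 and Clec4g Tfpi was at 405 CPM (12 UMIs).

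Plat was highest of the vessel types in arterial-like cells, with 777 CPM in WT (interval 680 to 884) and 901 CPM in VEGF/LysM (828 to 979). The Npr3 and Esm1 cluster had 524 and 514 CPM, below arterial-like cells and above all other types beyond counting error in both libraries. Continuous capillary-like cells had 37.8 and 27.2 CPM, 20.6-fold and 33.1-fold below arterial-like cells and close to the 33.9 and 18.2 CPM of adrenocortical-like cells. The Bgn and Sema3d cluster, which had the highest F8, had the lowest Plat of the Plvap-high clusters, 79.6 and 80.6 CPM. Plat was thus high in the same types as Procr and low in the type with most F8. The 4 UMIs of F8 and 6 of Plat in the venous-marker cells are too few to place them in this order.

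Tbxa2r followed high Plvap. The Igfbp5 and Adamtsl2 cluster had the highest level in both libraries, 302 CPM in WT (interval 259 to 349), 433 CPM in VEGF/LysM (343 to 540). In WT this interval overlapped those of the Ifit1 and Ifit3 cluster (215 to 303 CPM) and the Ccl2 and Sele cluster (204 to 268 CPM). The other Plvap-high clusters were between 173 and 256 CPM in WT and between 191 and 267 in VEGF/LysM, and tip-like cells had 148 and 166 CPM. Arterial-like cells had 54.0 and 17.7 CPM and continuous capillary-like cells 29.5 and 18.9 CPM, around the 33.9 and 29.2 CPM of adrenocortical-like cells. Tbxa2r is one of the 10 leading genes of the Igfbp5 and Adamtsl2 cluster although it was left out of the clustering, and this cluster was not found with a stricter cell filter.

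Entpd1 was broad. It was highest among the 9 types in the Bgn and Sema3d cluster, 493 CPM in WT (interval 456 to 531), 604 CPM in VEGF/LysM (559 to 652), and in the Npr3 and Esm1 cluster, 434.5 and 486 CPM. Arterial-like cells had 324 and 354 CPM. Tip-like cells had 169 and 203 CPM and continuous capillary-like cells 79.3 and 80.0 CPM, against 56.5 and 43.8 CPM in adrenocortical-like cells. The small cluster of lymphatic and venous markers had more than any large type, 787 CPM (35 UMIs) in WT and 1297 CPM (129 UMIs) in VEGF/LysM.

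**Figure D3:**
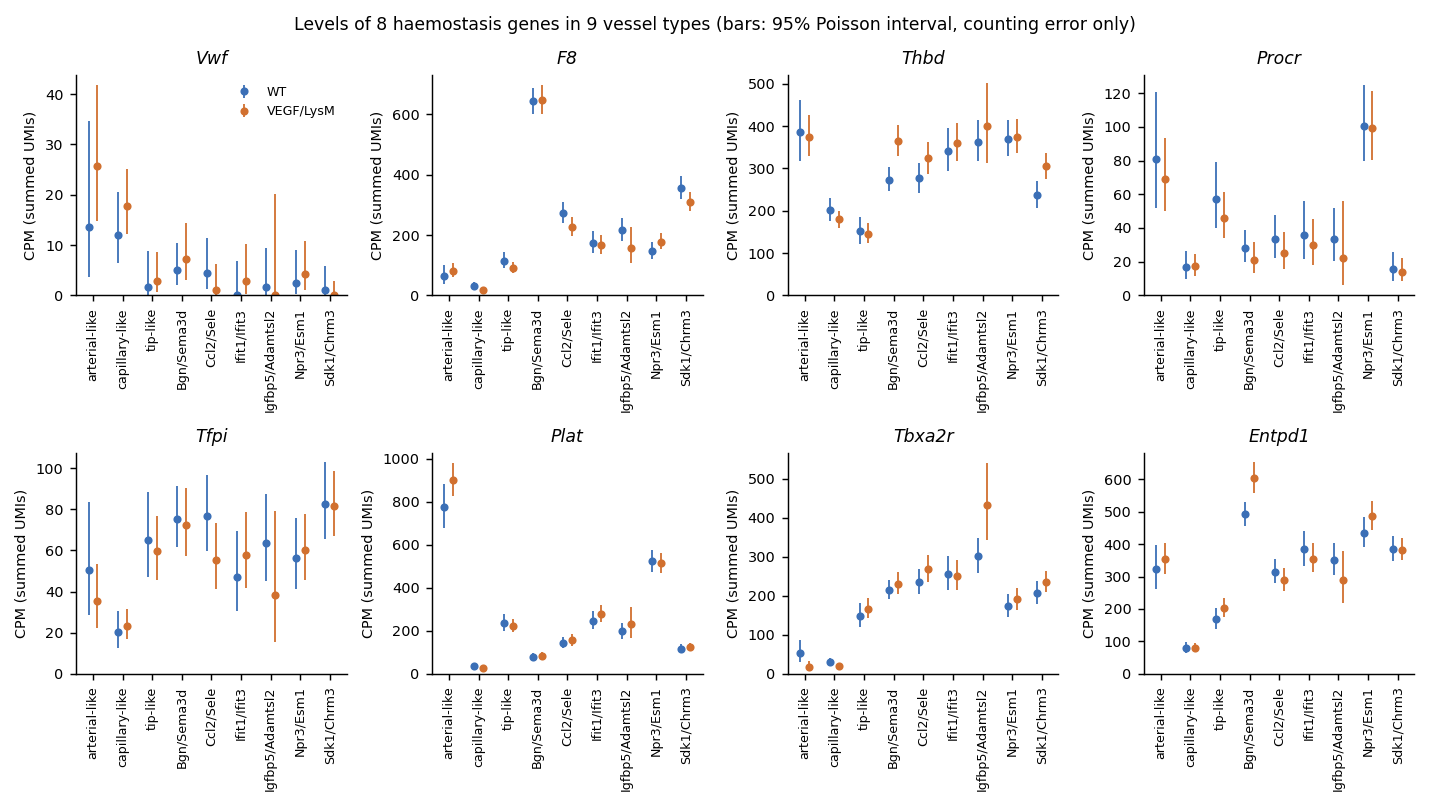
Level of each member in the 9 vessel types, in CPM of summed UMIs on linear axes of their own (points, with 95% Poisson intervals, counting error only), WT in blue and VEGF/LysM in orange. The names without further label are the Plvap-high clusters. F8 stands highest in Bgn/Sema3d, Plat in arterial-like cells, Procr in Npr3/Esm1 and Tbxa2r in Igfbp5/Adamtsl2 in both libraries. The interval overlaps that of the next type for Procr in both libraries and for Tbxa2r in WT.

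The order of vessel types was much alike in the 2 libraries, which were clustered together. The same type was highest in both for 7 of the 8 members and lowest in both for 6. Members were then counted by a difference of at least 2-fold from the other endothelial cells in both libraries, beside the share of the 10445 measured genes that passed the same rule. Continuous capillary-like cells had 6 of 8 members lower (F8, Procr, Tfpi, Plat, Tbxa2r and Entpd1), where 7.65% of genes were lower, and 0 members higher, where 4.06% of genes were. In arterial-like cells Procr and Plat were higher (3.24% of genes) and F8 and Tbxa2r lower (6.47%). In the pooled Plvap-high cells F8, Tbxa2r and Entpd1 were higher (2.66%) and Vwf lower (4.12%).

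Within the Plvap-high cells, F8 was higher in the Bgn and Sema3d cluster (1.39% of genes) and Plat lower (3.79%). Procr and Plat were higher in the Npr3 and Esm1 cluster (0.919%) and Vwf lower (3.49%). The Sdk1 and Chrm3 cluster had 0 members higher (0.402%) and Vwf and Procr lower (3.89%). The Ccl2 and Sele cluster had none past 2-fold, with 0 higher (0.479%) and 0 lower (3.61%). Vwf alone was lower in the Ifit1 and Ifit3 cluster (3.49%) and the Igfbp5 and Adamtsl2 cluster (3.74%), with 0 members higher (0.258% and 0.144%). Tip-like cells had Vwf and F8 lower (3.56%) and 0 members higher (0.938%). The Vwf calls rest on few UMIs. Those in Npr3 and Esm1 and in tip-like cells rest on 2 and 1 WT UMIs, with WT intervals that hold 0 (-4.78 to 0.22 and -7.68 to 0.19). That in Sdk1 and Chrm3 rests on 1 UMI in WT and 0 in VEGF/LysM. There the limit of 3 counts was 6.09-fold below the other cells, and the exact interval of the log2 difference had an upper end of -2.28. The calls in Ifit1 and Ifit3 and in Igfbp5 and Adamtsl2 also rest on a count of 0. In WT cells of Ifit1 and Ifit3 the limit of 3 counts was 1.44-fold below the other cells, and the exact interval had an upper end of -0.18. In VEGF/LysM cells of Igfbp5 and Adamtsl2 the limit allows no fold, and the interval reached 0.73.

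In the cluster of lymphatic and venous markers Vwf, Procr and Entpd1 were higher (3.77% of genes) and Tbxa2r lower (13.1%). In the 12 venous-marker cells Vwf, Procr and Tfpi were higher (3.63%) and Tbxa2r lower (42.3%). Tfpi rests there on 4 UMIs, and the 0 UMIs of Tbxa2r allow up to 512 CPM in the 4 WT cells, above its level elsewhere.

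Levels of the members were compared over 10 endothelial clusters of at least 50 cells in each library, each cluster in each library a point, which gives 20 points that share 2 libraries and their depths. The Pearson correlation of log2(CPM + 10) was 0.84 between F8 and Entpd1, 0.83 between F8 and Tfpi, 0.83 between Procr and Plat, and -0.76 between Vwf and Tbxa2r. Vwf and Thbd had a correlation of 0.00. The cluster of lymphatic and venous markers, with 37 WT and 35 VEGF/LysM cells, is below 50 cells and was left out. The Vwf correlations therefore do not cover the cells with most Vwf, and in the clusters used Vwf reached at most 25.7 CPM. Among 9417 genes the ones most like F8 were Mettl24 (0.96), Tspan9 (0.95) and Boc (0.94), those most like Tbxa2r were Ramp3 (0.97), Exoc3l2 (0.97) and Plvap (0.96), and those most like Plat were Dkk2 (0.96), which is on the arterial marker list, Lef1 (0.95) and Ntn4 (0.92). Procr was closest to Lepr (0.90), Sat1 (0.89) and Iqgap1 (0.87), and Thbd to Slc9a3r2 (0.82), Klf2 (0.81), which encodes a transcription factor induced by flow, and Dnajb1 (0.79). Tfpi was closest to Tshz3 (0.91), Arhgap26 (0.90) and Fmnl2 (0.89), Entpd1 to genes that include Rai14 (0.94) and Wls (0.93), and Vwf to Fbln5 (0.87), Stmn2 (0.87) and Bicd1 (0.86), where Fbln5 and Stmn2 belong to the arterial marker list. These are descriptions of 20 points and carry no test.

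Between the libraries, the levels over all endothelial cells were close for most members. Vwf was at 7.56 CPM in WT and 12.2 in VEGF/LysM, a log2 ratio of VEGF/LysM over WT of 0.68 (95% interval 0.21 to 1.18, counting error only), and was the 1 member of 8 past a 1.5-fold difference, which 6.04% of 12277 genes passed. F8 was at 270.3 and 211 CPM, a log2 ratio of -0.36 (-0.45 to -0.27). Plat was at 196 and 226 CPM (0.20, 0.10 to 0.30), Tfpi at 63.2 and 53.8 CPM (-0.23, -0.42 to -0.05) and Tbxa2r at 178 and 164 CPM (-0.12, -0.23 to -0.01). For Thbd (273 and 286 CPM, 0.07), Procr (39.0 and 36.5 CPM, -0.10) and Entpd1 (329 and 327 CPM, -0.01) the interval held 0. With 1 library for each genotype these intervals say nothing of the spread between mice.

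The mix of vessel types differed between the libraries. The Bgn and Sema3d cluster, where F8 was highest, was 17.2% of WT and 10.7% of VEGF/LysM endothelial cells, the continuous capillary-like cells 15.3% and 22.4%, and the arterial-like cells 4.31% and 7.07%. When each of the larger endothelial clusters was given equal weight, the log2 ratio was -0.10 for F8, 0.14 for Tbxa2r and 0.57 for Vwf. Vwf was then no longer past 1.5-fold, and Tbxa2r turned from -0.12 to above 0. The cluster of lymphatic and venous markers, which held 41.1% of WT and 38.0% of VEGF/LysM Vwf UMIs, had no part in these values. Within the Bgn and Sema3d cluster F8 was at 644 CPM in WT and 648 in VEGF/LysM, a log2 ratio of 0.01 (-0.13 to 0.15). Within the pooled Plvap-high cells it was at 351 and 319 CPM, a log2 ratio of -0.14 (-0.24 to -0.04).

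Within the 9 vessel types, 2 of the ratios that had at least 50 UMIs passed 1.5-fold. Both were in continuous capillary-like cells, where 6 members were measured and 9% of genes passed. F8 was at 31.3 CPM (34 UMIs) in WT and 18.9 CPM (34 UMIs) in VEGF/LysM, a log2 ratio of -0.73 (-1.46 to -0.00011), and Tbxa2r at 29.5 CPM (32 UMIs) and 18.9 CPM (34 UMIs), a ratio of -0.64 (-1.38 to 0.10). For Tbxa2r these levels are near the 33.9 and 29.2 CPM of adrenocortical-like cells, while F8 had 0 UMIs there in WT and 73.0 CPM in VEGF/LysM. F8 turned to 0.15 there when the cells' own CPM values were averaged in place of summing UMIs. No measured member passed 1.5-fold in arterial-like cells (12.8% of genes), in tip-like cells (9.25%), in the pooled Plvap-high cells (5.14%) or in the clusters of Bgn and Sema3d (8.67%), Ccl2 and Sele (8.85%), Ifit1 and Ifit3 (10.5%), Igfbp5 and Adamtsl2 (17.9%), Npr3 and Esm1 (7.69%), and Sdk1 and Chrm3 (8.8%). Tbxa2r in arterial-like cells had 16 WT and 11 VEGF/LysM UMIs, below the minimum, with a log2 ratio of -1.61 (-2.86 to -0.41). The cluster of lymphatic and venous markers was too small to be one of the 9 types. There Entpd1 had a log2 ratio of 0.72 (0.17 to 1.30, 35 WT and 129 VEGF/LysM UMIs). F8 had a ratio of 0.77 (-0.21 to 1.88, 11 and 42 UMIs). Both were past 1.5-fold, but the share of genes past it there is not given.

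Smaller differences were seen for Thbd. In the Bgn and Sema3d cluster it was at 273 CPM in WT and 364 in VEGF/LysM, a log2 ratio of 0.41 (0.21 to 0.62), and in the Sdk1 and Chrm3 cluster at 237 and 305 CPM, a ratio of 0.36 (0.13 to 0.61). Over the pooled Plvap-high cells the ratio was 0.20 (0.10 to 0.30), while in arterial-like cells, with 385 and 375 CPM, it was -0.04 (-0.37 to 0.30). Tbxa2r in the Igfbp5 and Adamtsl2 cluster was at 302 and 433 CPM, 0.52 (0.12 to 0.91), where 118 VEGF/LysM cells gave 79 UMIs. Entpd1 in the Bgn and Sema3d cluster was at 493 and 604 CPM, 0.30 (0.14 to 0.45). Plat in arterial-like cells was at 777 and 901 CPM, 0.21 (-0.01 to 0.44). Whether the ratio of any member differed between vessel types was not tested, since each type gives 1 value per library.

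Vwf had fewer than 50 UMIs over both libraries in each of the 9 types and its ratio within a type could not be measured. In the cluster of lymphatic and venous markers it was at 517 CPM (23 UMIs) in WT and 412 CPM (41 UMIs) in VEGF/LysM, a log2 ratio of -0.33 (-1.10 to 0.48). The higher level over all VEGF/LysM endothelial cells thus stood beside a larger share of cells in that cluster and in the capillary-like and arterial-like types. With equal weight for each of the larger endothelial clusters, as given above, the Vwf ratio was no longer past 1.5-fold but stayed higher in VEGF/LysM. That value leaves out the cluster of lymphatic and venous markers, where the ratio was -0.33, so it does not cover the cells with most Vwf. Beyond that, the part of this mix in the ratio was not tested.

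**Figure D4:**
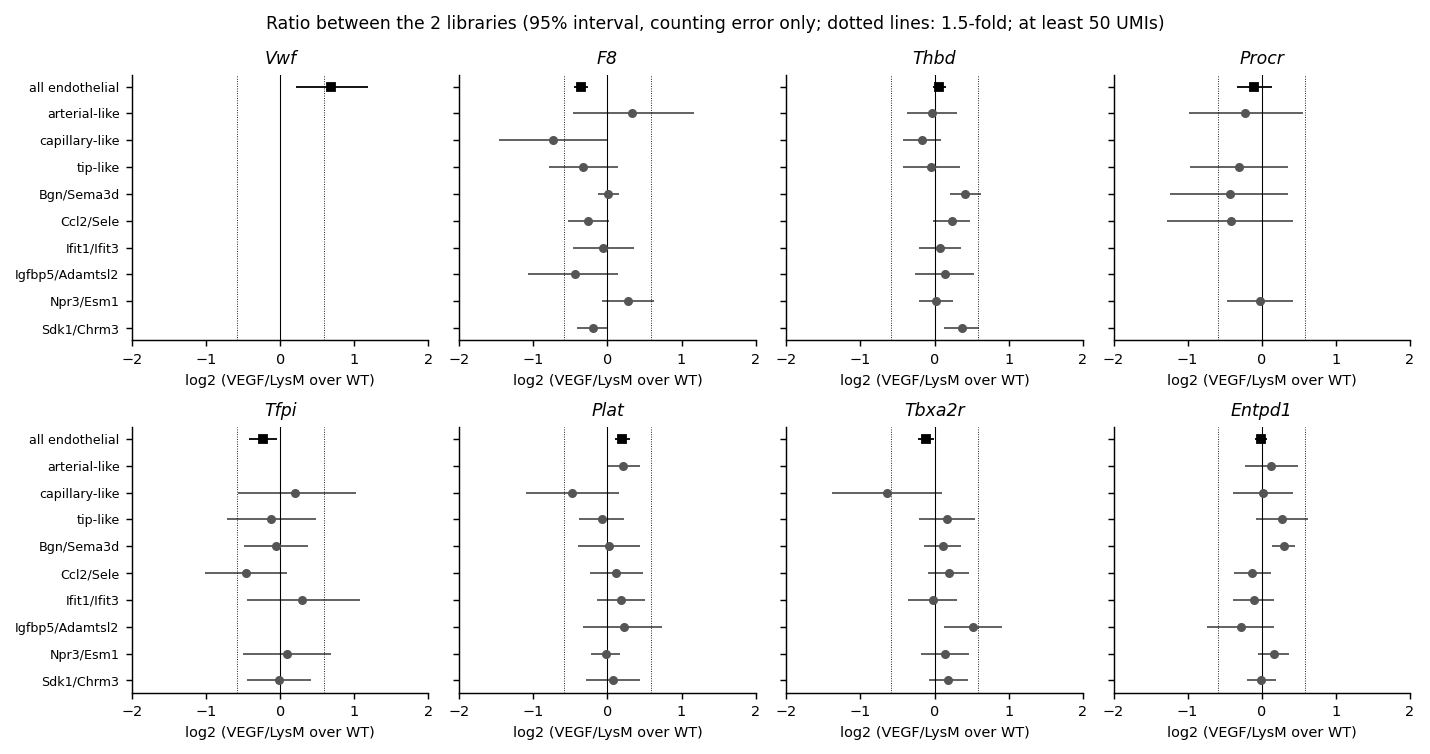
Log2 ratio of VEGF/LysM over WT for each member in all endothelial cells (squares) and in each vessel type (circles), with 95% intervals for counting error only, where both libraries together had at least 50 UMIs. Dotted lines mark 1.5-fold; Vwf is past it over all endothelial cells (0.68), and F8 (-0.73) and Tbxa2r (-0.64) are past it in the capillary-like cells.

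The share of cells with a UMI depends on depth. Unthinned, Thbd was found in 26.5% of WT and 41.0% of VEGF/LysM endothelial cells, and after thinning, which left out 2106 WT and 278 VEGF/LysM cells of lower depth, in 21.3% and 23.6%. For F8 the thinned shares were 22.0% and 15.2%, and for Entpd1 26.2% and 24.9%. In adrenocortical-like cells thinned shares were at most 8.33% for any member. Thinned shares of F8 were 43.3% in WT and 44.2% in VEGF/LysM in the Bgn and Sema3d cluster and 2.32% and 2.29% in capillary-like cells, in the order of the CPM levels. Plat was found in 47.5% and 53.6% of thinned arterial-like cells and in 4.12% and 1.71% of thinned capillary-like cells.

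In the wider haemostasis list of 65 genes 39 had at least 50 UMIs, of which 3 were at least 1.5-fold higher in VEGF/LysM over all endothelial cells (2.98% of all genes) and 3 lower (3.05%). The median log2 ratio of the 39 was -0.09, beside -0.03 for all 12277 genes. The 3 higher genes were Vwf, Serpine2 (28.8 CPM in WT and 45.3 in VEGF/LysM), which encodes an inhibitor of thrombin and plasminogen activators, and the nucleotide receptor P2ry2 (2.16 and 4.50 CPM). The 3 lower genes were Tbxas1, the thromboxane synthase (129 and 83.4 CPM), the ADP receptor P2ry1 (26.3 and 14.9 CPM) and Stab2 (19.6 and 5.06 CPM), a scavenger receptor that takes up von Willebrand factor. Of 145 WT Stab2 UMIs 115 were in the 13 cells of the Stab2 and Clec4g cluster, while in the Bgn and Sema3d cluster Stab2 was at 14.5 CPM in WT and 34.8 in VEGF/LysM. P2ry2 and Stab2 fall outside the rule for named genes and were named after their values were seen.

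Of the 13 ligands and procoagulant factors 6 were measured, and tissue factor (F3) had 0 UMIs in both libraries. Lman1 (92.9 CPM in WT and 98.9 in VEGF/LysM) and Mcfd2 (50.1 and 47.8 CPM), which form the receptor that carries factor VIII out of the endoplasmic reticulum, were present in both, as was Vkorc1 (22.9 and 30.0 CPM), an enzyme of the vitamin K cycle. Of the 12 anticoagulants 8 were measured. Pros1, which encodes protein S, the cofactor of activated protein C, was at 169 and 157 CPM and of the 9 types was highest in the Bgn and Sema3d cluster, with 232 and 234 CPM. Anxa5, a binder of procoagulant phospholipid, was at 225 and 240.2 CPM. Serpine2 was highest in the Npr3 and Esm1 cluster (133 and 145 CPM) and arterial-like cells (70.9 and 140.0 CPM), the types with most Procr and Plat.

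Of the 10 fibrinolysis genes 7 were measured and none passed 1.5-fold. Anxa2 (223 and 240 CPM) and S100a10 (406 and 517 CPM), which together bind plasminogen activator at the cell surface, were of the 9 types highest in the Ccl2 and Sele cluster, with 314 and 344 CPM for Anxa2 and 578 and 863 CPM for S100a10. The urokinase receptor Plaur was at 71.4 and 67.1 CPM and the plasminogen receptor Plgrkt at 107 and 98.5 CPM. Of the 11 platelet-regulating genes 7 were measured. Ptgs1, the cyclooxygenase upstream of thromboxane and prostacyclin, was at 84.1 and 68.9 CPM and of the 9 types was highest in the Bgn and Sema3d cluster (187 CPM in both), where Tbxas1 was at 269 and 162 CPM. Nos3, the endothelial nitric oxide synthase, was at 106 and 111 CPM, with 76.7 to 132 CPM over the 9 types in WT and 95.2 to 145 in VEGF/LysM, and P2ry1 was highest of the 9 types in arterial-like cells (54.0 and 41.8 CPM). Of the 4 thrombin receptors F2r was at 418 and 348 CPM and F2rl3 was the other one measured. Of the 15 genes of von Willebrand factor storage, release and clearance 9 were measured, among them the exocytosis genes Stxbp5 (109 and 123 CPM), Stx2 (103 and 93.2 CPM) and Stx3 (58.5 and 51.6 CPM). These were found at such levels in cells that had few Vwf UMIs.

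**Figure D5:**
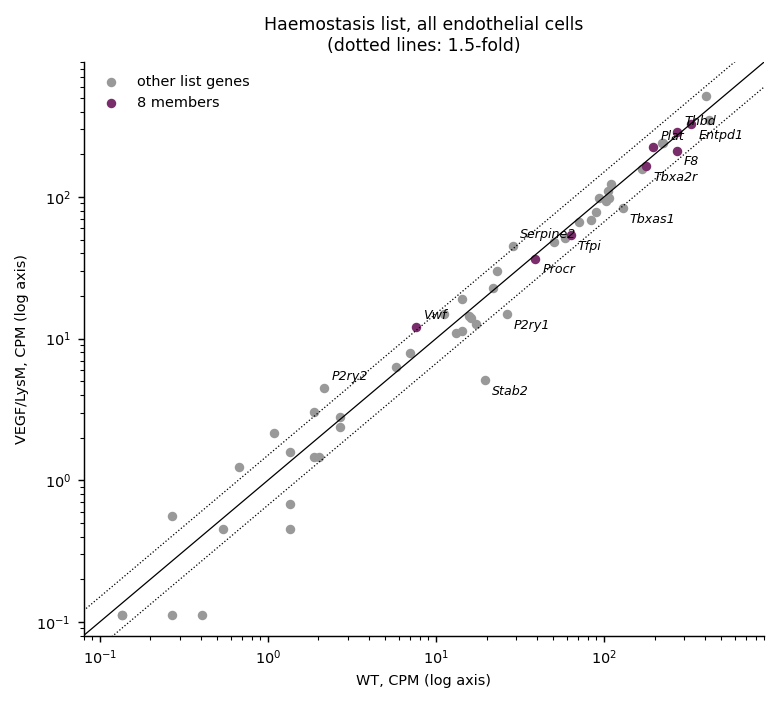
Level over all endothelial cells in WT (x axis) and VEGF/LysM (y axis), in CPM on log axes, for the 55 of 65 list genes with UMIs in both libraries; the 8 members are in purple and dotted lines mark 1.5-fold. Of the genes with at least 50 UMIs, Vwf, Serpine2 and P2ry2 lie above the dotted lines and Tbxas1, P2ry1 and Stab2 below; the other points outside them, at the lower left, have fewer UMIs.

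Platelets and megakaryocytes also carry Vwf, so their markers were counted beside it. Of 10 markers of platelets and megakaryocytes, Itgb3 had 69.1 CPM in WT and 55.9 in VEGF/LysM over all endothelial cells and the other 9 together 29.4 and 21.3 CPM. Gp1bb was at 0 in WT and Gp1ba and Gp6 at 0 in VEGF/LysM. The other 9 were between 8.79 and 48.8 CPM in the WT vessel types and between 1.61 and 45.3 CPM in the VEGF/LysM types, and were highest in the Ccl2 and Sele cluster in both, where Vwf was at 4.44 and 1.13 CPM. In the smaller cluster of lymphatic and venous markers, which held 38.0% of the VEGF/LysM Vwf UMIs, the other 9 had 0 UMIs in WT but 17 in VEGF/LysM (171 CPM), none of them in the venous-marker cells, and their part in the Vwf level of that cluster was not tested. Among the 11 arterial-like cells with a Vwf UMI there were 3 Pf4 UMIs, and in the 483 without Vwf there were none. All 3 were in WT, where leaving out cells with a Pf4 UMI took the arterial-like cells from 245 to 244. The VEGF/LysM arterial-like cells, with 16 Vwf UMIs, had no Pf4 UMI. The part of platelet RNA in the arterial-like Vwf level was not tested.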

How the data were processed

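Droplet RNA-seq of sorted adrenal endothelial cells was used, 1 WT and 1 VEGF/LysM library. The deposited values are raw UMI counts per gene and cell, made by the authors with Cell Ranger 7.0.1 on mm10, per the submitters' processing notes (the matrix header, per the file headers, names version 7.0.0). The notes also name Seurat, and the kit chemistry is not stated. The members and gene lists were chosen with earlier results of these data known.

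Cells needed 500 UMIs, 300 genes and no more than 15% of UMIs from mitochondrial genes, and the highest doublet scores, 0.8% per 1000 cells, were removed as possible doublets. Both libraries were clustered together without the haemostasis list (scanpy 1.11.5, 2000 variable genes, 30 components, 15 neighbours, Leiden resolution 1), giving 18 clusters. The limits for naming clusters (a marker score of 1.5, or 3 where strong, and 700 CPM of Plvap) were set after the clusters were seen. UMIs were summed per cell group and library. Ratios have exact conditional binomial 95% intervals (scipy 1.17.1), which cover counting error only, and need at least 50 UMIs over both libraries. No p-value was computed, since each group has 1 library. The intervals and ratio functions were tested on simulated data. Beside the members, up to 4 genes per subgroup of the list were named by their highest level in a vessel type, and for each member the 3 genes of most like pattern. Some genes that this rule names are not reported here.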

Additional observations from a re-analysis of the deposited data

Results flagged for a closer look

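Plat was counted in cells outside the endothelial comparisons. The 4 mural-like cells of the VEGF/LysM library had 524 CPM of Plat (11 UMIs), above the 18.2 CPM of its adrenocortical-like cells, and the 4 mural-like cells of the WT library had 273 CPM (2 UMIs). In VEGF/LysM all 11 UMIs were in 1 of the 4 cells.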

How the results depend on the processing

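No paired analysis was possible because each group has 1 library. Of 2141 ratios recomputed under other settings, 1950 stayed within the counting interval of the value reported. The sign changed in 174, of which 17 had a reported interval that left out 0. Among them was Tbxa2r over all endothelial cells (-0.12, and 0.14 with an equal mix of the larger clusters). Of ratios past the fold of their comparison, 1 changed sign: F8 in continuous capillary-like cells, whose log2 ratio of VEGF/LysM over WT was -0.73 with summed UMIs and 0.15 as the mean of the cells' own CPM. The 2 member ratios past 1.5-fold within vessel types became 5 with a stricter cell filter and 4 with every deposited barcode. They became 4 with the haemostasis list kept in the clustering and 5 with the mean of the cells' own CPM. A minimum of 20 UMIs gave 6, no minimum gave 12, and leaving out cells with a Pf4 UMI, a setting added after seeing the data, gave 1. The shares of all genes past the same rule under these settings, and under those that follow, are not given here. Changes in these counts are therefore not a result about the members. Over all endothelial cells the 1 member past the fold became 0 with thinned cells, where Vwf had fewer UMIs. The count was also 0 with the mean of the cells' own CPM and 0 with an equal mix of the larger clusters. It was 2 at the lower fold tried and 0 at a fold of 2. Vwf in the WT venous-marker cells, higher by 8.58 on the log2 scale, was higher by 9.58 with thinned cells and 7.26 with median-ratio scaling. It was higher by 6.85 over the whole lymphatic and venous marker cluster, where the VEGF/LysM value was 5.76 against 7.35 (a setting also added after seeing the data). The values 9.58, 7.26 and 6.85 all lie outside the WT counting interval of 7.56 to 9.50. Clusters were not all found under each setting, and no value was then given: the venous-marker cells with every deposited barcode or without doublet removal, the Bgn and Sema3d cluster without doublet removal, the Igfbp5 and Adamtsl2 cluster with the stricter filter, and the Ccl2 and Sele cluster with every barcode or with the list kept in the clustering. Vwf had fewer than 50 UMIs in each vessel type, so its ratios between libraries there are not measured.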
